A study of Mus musculus with 31 samples.

Results

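Endothelial cells grown in a dish for 3 days from hemangioblast-like lines were compared with endothelial cells sorted straight from the mouse embryo at the stage called E11.5, for the days of embryonic development. The comparison took every library that the labels give as a day 3 endothelial culture and every library of E11.5 embryo endothelium, which makes 7 of the series' 31 libraries. The study derived expandable hemangioblast (eHB) lines, which grow under doxycycline (2 µg/mL), the drug that keeps their inducible transgenes on. A hemangioblast is a progenitor of both blood and endothelium. The source was fetal liver for FL4 and FL10, embryonic fibroblasts for M5, and embryonic stem (ES) cells for RB3.6.5 and for RB4.6.9. The deposited table has rows for ectopic transcripts of 6 factors, 5 of which are described here: Tal1, Sox17, Lmo2, Gata2 and Mycn. Each line gave 1 endothelial culture, so the group is 5 lines with 1 library each. These cells had been differentiated for 3 days on Matrigel, a basement membrane gel, in serum-free N2B27 medium without doxycycline. Its growth factors were FGF2 (human, 12.5 ng/mL), BMP4 (human, 20 ng/mL) and VEGF (murine, 20 ng/mL). It also held SB431542 (4 µM), which inhibits the TGF-beta type I receptor, and the cyclic AMP analogue 8-bromo-cAMP (0.25 mM). The cultures were not sorted. The embryo cells were sorted as positive for VE-cadherin and Pecam1 and were lysed at once (n = 2 libraries, here embryo library 1 and embryo library 2). The labels do not say whether the embryo libraries came from separate animals or pools, so p-values measure the spread between these libraries, which may in part be technical. Growth in a dish, the medium, the lines with their transgenes and the lack of a sort all separate the same libraries, and their effects cannot be told apart. Yolk sac endothelium of the same stage (n = 2) was left out of the comparison because its libraries carry endoderm transcripts, and it appears here in values beside single genes, in plots and as an alternative to the embryo libraries.

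Endothelial cells line all blood and lymph vessels and share a core set of surface receptors and transcription factors. In the embryo they also take on the features of the organ they supply and of the vessel they sit in: brain vessels tighten under Wnt signals, arteries and veins part under VEGF and Notch, and flowing blood maintains factors such as Klf2. The E11.5 embryo endothelium is thus a blend of arterial, venous, capillary, endocardial and organ-specific cells, whereas a culture grows in one medium in a dish.

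Values are deposited TPM, a level scaled to library size and corrected for transcript length. The 5 culture values are always given in the order RB3.6.5, RB4.6.9, FL4, FL10 and M5, and the embryo values in the order library 1 and library 2. A log2 fold change is culture over embryo and stands with its standard error (SE). Its p-value comes from edgeR's quasi-likelihood test with Benjamini-Hochberg adjustment over all 13725 genes tested, and a gene was called at an adjusted p below 0.05. Expected counts summed to between 29990385 and 48340524 per culture and to between 23548227 and 30400302 per embryo library. Pearson's r of log2(TPM + 1) over 12452 genes, a description across genes, was 0.925 to 0.980 between cultures, 0.983 between the embryo libraries and 0.791 to 0.837 between a culture and an embryo library.

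All 7 libraries held endothelial markers, though not all of the defining ones at a like level. The sum of 10 endothelial markers was 10319, 7518, 9021, 8943 and 9156 TPM in the cultures and 7102 and 8406 TPM in the embryo libraries, with Cdh5 and Pecam1, the sorting markers, in the sum. The other members Kdr, Tek, Tie1, Robo4 and Egfl7 were well above 0 in every library, the lowest value being that of Tek at 96.2 TPM. In the cultures Emcn ranged over 11.8 to 65.9 TPM, Esam over 1.47 to 887 TPM and Cldn5 over 4.36 to 1043 TPM, and the lowest were far under the embryo libraries, as given below. Markers of other cells were not alike in the groups. The 12 macrophage markers in the table summed to 25.5, 26.4, 25.5, 24.9 and 17.5 TPM in the cultures and 351 and 489 TPM in the embryo libraries, and C1qa, C1qb and C1qc were at 0 in every culture. For 10 pan-leukocyte markers the sums were 163, 76.4, 139.6, 60.6 and 107 TPM and 506 and 621 TPM. Ptprc, which encodes the leukocyte surface protein CD45, was at 0.011, 0, 0.021, 0 and 0.031 TPM against 1.38 and 3.07 TPM (log2 fold change -7.54 ± 0.90, adjusted p = 0.00094). The sums of 10 mesenchyme and fibroblast markers were 0.903, 2.62, 1.03, 5.22 and 0.450 TPM in the cultures and 43.6 and 61.8 TPM in the embryo libraries. Erythroid markers, 13 of them, came to 45.7, 35.4, 205, 26.3 and 3124 TPM in the cultures and 3465 and 48529 TPM in the embryo libraries, so that embryo library 2 and the M5 culture each stood far above their group. The M5 culture was also high in 10 megakaryocyte and platelet markers, at 74.0, 75.9, 188, 118 and 1685 TPM for the cultures against 59.9 and 89.5 TPM for the embryo libraries. In bulk RNA such as this, fewer cells of a type and less RNA per cell cannot be told apart. For Ptprc the log2 fold change was -6.94 without embryo library 2. For Ptprc the log2 fold change was -8.31 without the M5 culture.

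**Figure D1:**
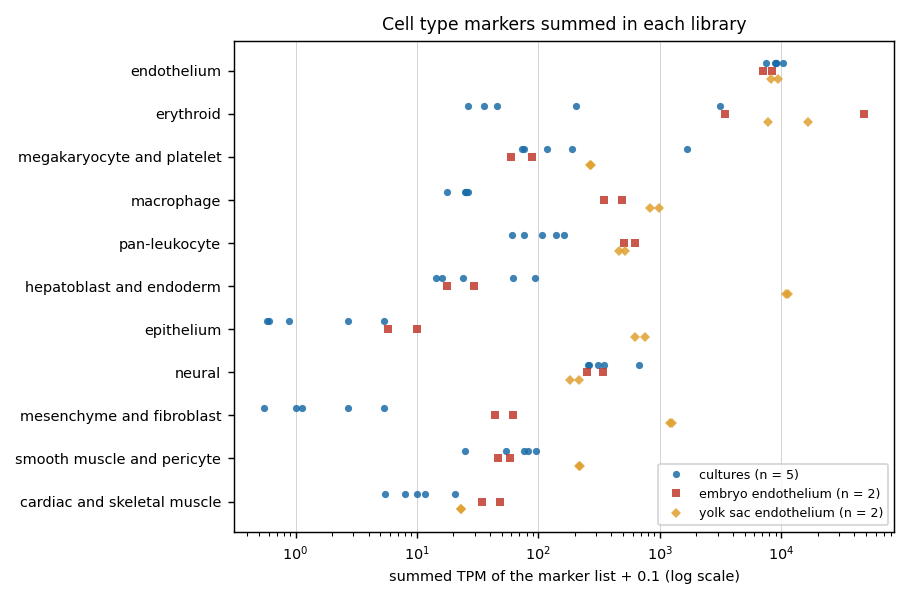
Summed TPM of 11 marker lists in each library (x axis, log scale, with 0.1 TPM added); each point is 1 library, with blue circles for the 5 cultures, red squares for the 2 embryo libraries and yellow diamonds for the 2 yolk sac libraries. The endothelial sums lie together, macrophage and mesenchyme sums are lower in all 5 cultures than in both embryo libraries, and the M5 culture stands apart in erythroid and megakaryocyte markers.

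Of the 13725 genes tested, 3025 (22.04%) were higher in the cultures and 3210 (23.4%) were lower. Tested against a change of 2-fold rather than against no change, 746 (5.44%) were higher and 1285 (9.36%) lower. For 4252 genes (30.98%) the 95% interval of the fold change lay wholly within 2-fold. The median log2 fold change over all genes tested was 0.02, and the counts of each gene list below are to be read against these shares and this median. This does not hold for list counts of fits without 1 library, because the counts over all genes moved in those fits too. The counts fell to 1570 higher and 1845 lower without embryo library 1 and to 1880 and 2294 without embryo library 2, and beyond 2-fold to 238 and 489, and to 341 and 566. In those fits the remaining embryo library was assumed to vary like the cultures.

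At the far ends stood genes that were nearly silent on one side. Among the largest rises was Cdkn2a, which encodes the cell cycle inhibitors p16INK4a and p19ARF, at 453, 427, 379, 238 and 162 TPM in the cultures and 0.072 and 0 TPM in the embryo libraries. With it stood Serpinb11, a serine protease inhibitor family member, at 241, 117, 164, 171 and 155 TPM against 0.062 and 0 TPM. The pregnancy-specific glycoprotein Psg22 was at 29.1, 331, 84.3, 378 and 85.8 TPM against 0.072 and 0 TPM. With 1 or 2 counts in the embryo libraries, the ratios were 7953-fold (95% counting interval 1427 to 314139) for Cdkn2a, 4365-fold (95% counting interval 1208 to 36048) for Serpinb11 and 4549-fold (95% counting interval 1259 to 37564) for Psg22, where the interval covers counting error only. These intervals overlap, so the 3 genes cannot be ranked. Psg22 varied from line to line, with RB4.6.9 and FL10 above the other cultures, and its reads may be shared with its near-identical relatives. Other large rises were those of the potassium channel gene Kcnma1, the CRH-binding protein gene Crhbp, the chloride channel family gene Ano3, the chemokines Ccl2 and Ccl12, the activin subunit Inhbb and the matrix protein tenascin C (Tnc). Tnc stood at 1349, 1075, 2056, 1557 and 1027 TPM in the cultures and 2.64 and 3.67 TPM in the embryo libraries, and Inhbb at 55.2, 97.8, 42.0, 94.7 and 119 TPM against 0.144 and 0.186 TPM (log2 fold change 8.98 ± 0.71, adjusted p = 0.000306).

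Among the largest drops were Palmd, a paralemmin family gene, at 0.022, 0, 0, 0 and 0 TPM in the cultures and 38.2 and 38.3 TPM in the embryo libraries, and the elastin gene Eln at 0, 0, 0, 0 and 0.031 TPM against 24.3 and 31.2 TPM. Palmd was above 0 in the RB3.6.5 culture alone among the cultures, and Eln in M5 alone. Their count ratios of embryo over culture were 6931-fold (95% counting interval 1243 to 273893) and 5207-fold (95% counting interval 933 to 205768). The retinol uptake receptor gene Stra6 and the collagen gene Col26a1 had no count in any culture and stood at 32.1 and 33.1 TPM and 21.8 and 25.8 TPM in the embryo libraries, at least 2253-fold and at least 1581-fold lower against a floor of 3 counts over the group. Prkcdbp, which encodes the caveolar protein cavin-3, was at 0.12, 1.05, 0, 0 and 0.073 TPM in the cultures and 405 and 368 TPM in the embryo libraries (log2 fold change -10.33 ± 0.91, adjusted p = 0.000424). The 4 macrophage genes C1qa, C1qb, C1qc and Ctss were also among the 12 largest drops, beside the macrophage marker sums given above. The part of macrophages in these drops was not tested, though C1qa, C1qb and C1qc were at 0 in every culture. For Prkcdbp the log2 fold change was -12.89 without the RB4.6.9 culture.

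**Figure D2:**
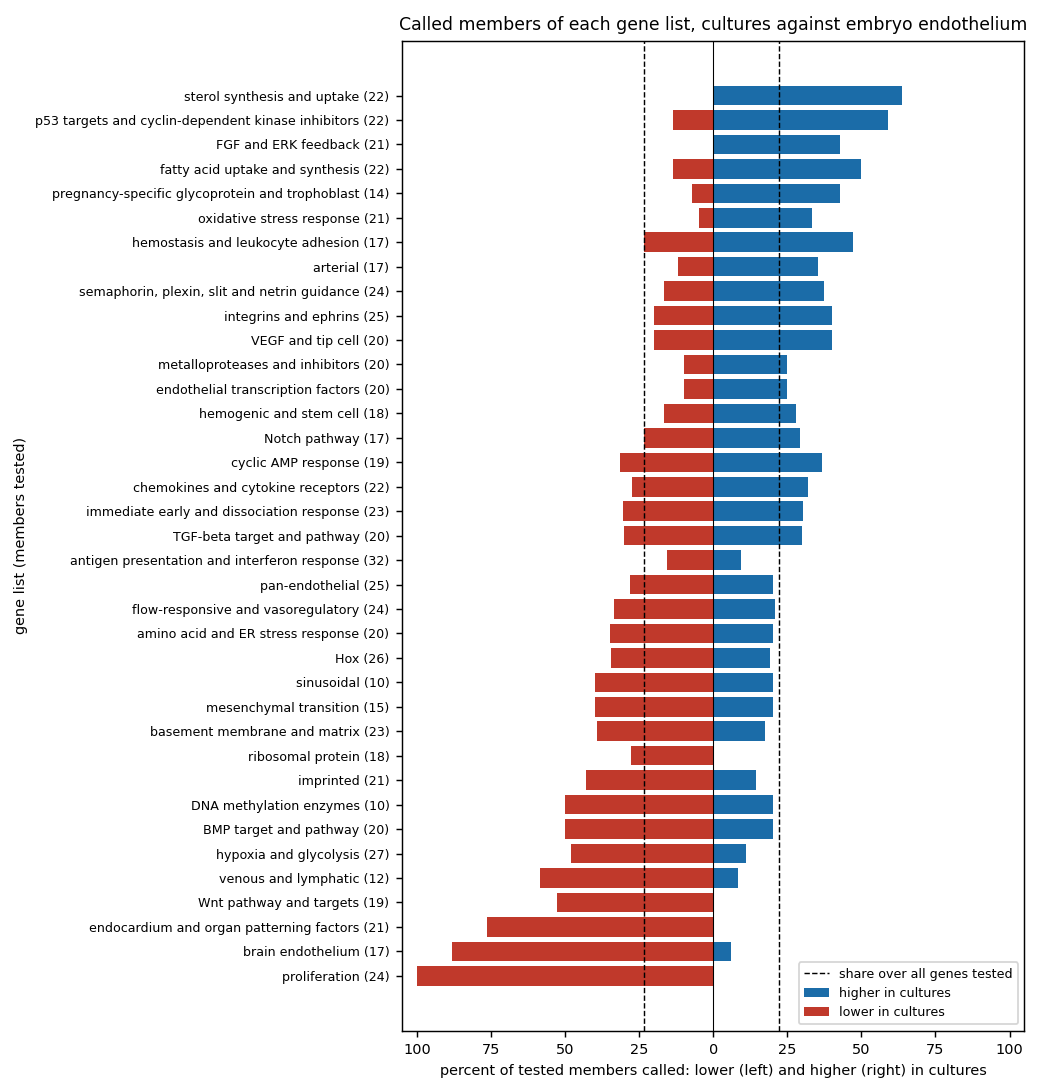
Percent of the tested members of each gene list that were called lower (red, to the left of 0) or higher (blue, to the right) in the 5 cultures than in the 2 embryo libraries; the number tested stands in brackets and the dashed lines mark the shares over all genes tested, 23.4% lower and 22.04% higher. Proliferation, brain endothelium and organ patterning lists reach far to the left, and the sterol list and the list of p53 targets and inhibitors far to the right.

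The core endothelial surface genes were split. In the pan-endothelial list, of 25 tested members, 5 rose and 7 fell (median log2 fold change 0.02), and 7 lay within 2-fold, a share near that over all genes. Cdh5, which encodes the adherens junction protein VE-cadherin used for the sort, was higher in culture at 2924, 2554, 2837, 3031 and 3102 TPM in the cultures and 1079 and 1509 TPM in the embryo libraries (log2 fold change 1.16 ± 0.17, adjusted p = 0.0017). Pecam1, the other sorting marker, was at 2011, 1323, 1661, 1364 and 1752 TPM against 796 and 948 TPM (log2 fold change 0.89 ± 0.20, adjusted p = 0.00954). Every culture exceeded both embryo libraries for these 2 genes, although the embryo cells alone had been sorted on them. Gpr116, an adhesion receptor of endothelium, was at 916, 458, 692, 480.5 and 635 TPM against 102 and 178 TPM (log2 fold change 2.19 ± 0.33, adjusted p = 0.00217). The VEGF receptor Kdr, at 719.9, 695, 711, 785 and 513 TPM in the cultures and 528 and 834 TPM in the embryo libraries, overlapped between the groups (log2 fold change 0.02, 95% interval -0.45 to 0.49). The same held for the angiopoietin receptor family member Tie1 (0.03, 95% interval -0.35 to 0.41), the VEGF receptor Flt1 (0.20, 95% interval -0.47 to 0.86), Cd93 (0.09, 95% interval -0.40 to 0.59) and the guidance receptor Robo4 (0.48, 95% interval -0.01 to 0.98). These intervals exclude a change of 2-fold. The pan-endothelial counts were 4 higher and 4 lower without embryo library 1 and 4 higher and 4 lower without embryo library 2.

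Emcn, Plvap, Mmrn2 and Clec14a were lower in culture. Emcn, which encodes the sialomucin endomucin of capillaries and veins (GRCm38 chromosome 3, 137341067 to 137432185), was at 11.8, 51.4, 64.5, 65.9 and 24.4 TPM in the cultures and 927 and 795 TPM in the embryo libraries (log2 fold change -4.28 ± 0.58, adjusted p = 0.00146). Plvap, which forms the diaphragms of fenestrae, was at 193, 307, 199.8, 416 and 131 TPM in the cultures and 1347 and 1601 TPM in the embryo libraries (log2 fold change -2.57 ± 0.39, adjusted p = 0.00218). The cultures lay below both embryo libraries for both genes. Mmrn2, a matrix protein of vessels, was at 92.4, 107, 73.3, 55.8 and 51.6 TPM against 231 and 312 TPM (log2 fold change -1.83 ± 0.28, adjusted p = 0.00228). Clec14a, a C-type lectin that binds it, was at 21.1, 18.7, 3.09, 3.70 and 1.16 TPM against 125 and 125 TPM (log2 fold change -3.72 ± 0.96, adjusted p = 0.0175). The calls of Pecam1 and Clec14a ended without either embryo library (adjusted p = 0.0645 and 0.0536 for Pecam1 and 0.0822 and 0.0615 for Clec14a). The calls of Cdh5, Pecam1, Gpr116 and Mmrn2 ended in 1 fit of all 31 libraries (adjusted p = 0.409, 0.446, 0.245 and 0.0516).

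Several core members were spread widely among the cultures. The tight junction gene Cldn5 was at 1043, 236, 5.12, 4.36 and 17.1 TPM in the cultures and 941 and 868 TPM in the embryo libraries, and the junctional adhesion gene Esam at 887, 171, 1.47, 103 and 19.02 TPM against 540.3 and 592 TPM. Cd34, a sialomucin of endothelium and of blood progenitors, was at 742, 696, 11.8, 45.3 and 4.52 TPM against 1199.5 and 1098 TPM. In all 3 genes the RB3.6.5 culture was the highest of the cultures, and both ES-derived cultures stood above the other 3. The clotting factor carrier Vwf was at 2.13, 0.603, 2.63, 0.187 and 58.3 TPM against 89.2 and 137 TPM, with the M5 culture highest. None of these 4 genes passed the test (adjusted p = 0.437, 0.542, 0.355 and 0.184). Cldn5 was called lower with the FL4, FL10 and M5 cultures alone (adjusted p = 0.00358). Cd34 was called lower with the FL4, FL10 and M5 cultures alone (adjusted p = 0.0102). Vwf was called lower without the M5 culture (adjusted p = 0.00235), with the ES-derived cultures alone (adjusted p = 0.0022), in limma on log2(TPM + 1) (adjusted p = 0.0245) and in limma on log2(TPM + 0.1) (adjusted p = 0.0343). ES origin cannot be told apart from the medium of the eHB stage, which held the full endothelial supplement for the ES-derived lines and FGF2 for the others.

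**Figure D3:**
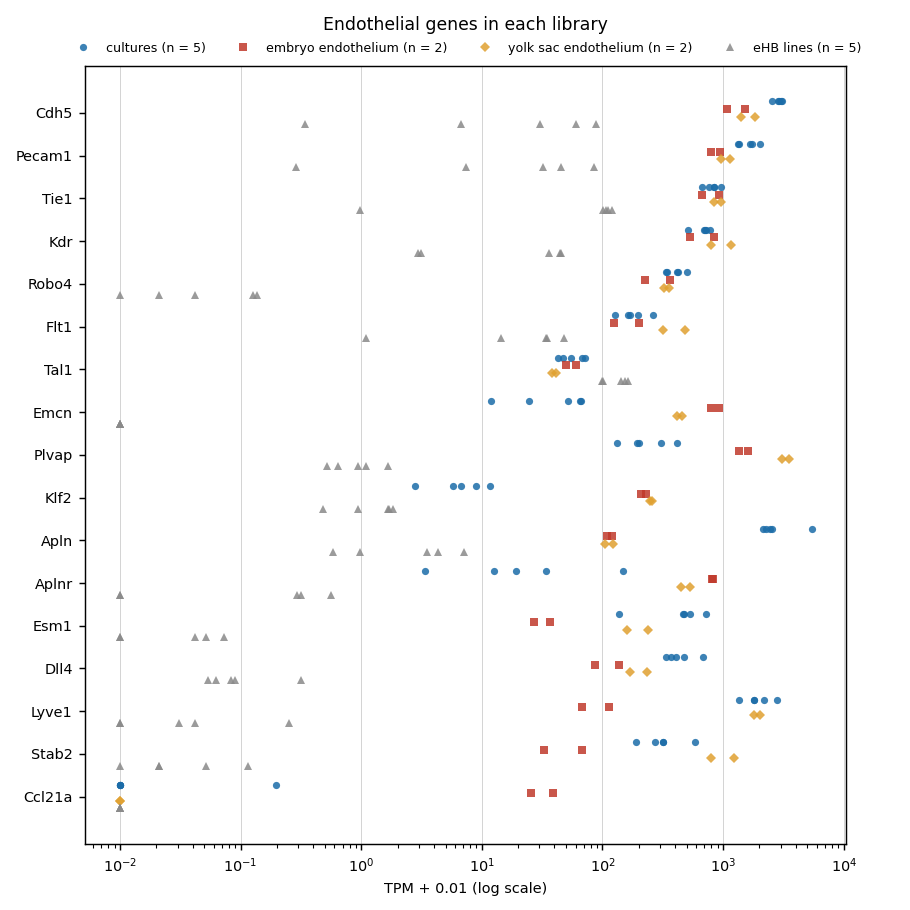
TPM of 17 endothelial genes (x axis, log scale, with 0.01 TPM added), 1 point for each library of the 5 cultures, 2 embryo and 2 yolk sac libraries and the 5 eHB lines. Kdr, Tie1, Flt1, Robo4 and the endogenous row of Tal1 overlap between cultures and embryo. Emcn, Plvap, Klf2, Aplnr and Ccl21a are lower in all 5 cultures, and Apln, Esm1, Dll4, Lyve1 and Stab2 are higher.

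Endothelial transcription factors were split too: of 20 tested members, 5 rose and 2 fell (median log2 fold change 0.21), and 6 lay within 2-fold. Those within 2-fold included the ETS factors Elk3 (-0.33, 95% interval -0.66 to 0.01) and Ets1 (-0.38, 95% interval -0.76 to 0.00), the hypoxia factor Epas1 (-0.22, 95% interval -0.79 to 0.35) and the blood and endothelial factor Tal1 at 43.0, 47.1, 54.7, 67.3 and 71.3 TPM in the cultures and 49.5 and 60.7 TPM in the embryo libraries (0.08, 95% interval -0.40 to 0.56). Fli1, a further ETS factor, was higher at 144, 137, 165, 148 and 109 TPM in the cultures and 60.8 and 74.1 TPM in the embryo libraries (log2 fold change 1.05 ± 0.16, adjusted p = 0.00231). Hoxb5, which acts on the Kdr promoter, was at 74.1, 65.1, 32.5, 58.4 and 15.1 TPM against 3.75 and 5.93 TPM (log2 fold change 3.35 ± 0.67, adjusted p = 0.00654). The E-protein gene Tcf4 was at 152, 145, 117, 119 and 112 TPM against 43.0 and 76.0 TPM (log2 fold change 1.14 ± 0.22, adjusted p = 0.00555). Lmo2, the partner of Tal1, was lower at 238, 194, 78.9, 98.6 and 147 TPM in the cultures and 373 and 361 TPM in the embryo libraries (log2 fold change -1.30 ± 0.39, adjusted p = 0.0307). The SoxF factors Sox7 and Sox17 were spread widely over the lines: Sox7 was at 99.95, 169, 6.96, 67.0 and 0.209 TPM against 107 and 153 TPM (adjusted p = 0.652). Sox17 was at 310.0, 119.9, 296, 92.3 and 57.3 TPM against 125 and 170.0 TPM (adjusted p = 0.704). Tal1, Lmo2 and Sox17 are given here by their endogenous rows alone. Their ectopic rows, which stand apart in the deposited table, follow in the next paragraph and are not part of these comparisons. The transcription factor counts were 3 higher and no longer any lower without embryo library 1, 4 higher and no longer any lower without embryo library 2, 6 higher and 1 lower without the RB3.6.5 culture, 5 higher and 1 lower without the RB4.6.9 culture, 5 higher and 1 lower without the FL4 culture and 5 higher and 1 lower without the FL10 culture. The calls of Hoxb5 and Lmo2 ended without embryo library 1 (adjusted p = 0.0676 and 0.168). The call of Lmo2 ended without embryo library 2 (adjusted p = 0.0903). The call of Lmo2 ended without the FL10 culture (adjusted p = 0.0552). The calls of Fli1, Hoxb5 and Lmo2 ended in 1 fit of all 31 libraries (adjusted p = 0.113, 0.131 and 0.146).

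The transgene rows were low but not silent in the cultures. Ectopic Tal1 was at 10.9, 56.8, 140.3, 37.1 and 24.1 TPM in the cultures and 0 and 0 TPM in the embryo libraries, against 1295 to 4233 TPM in the eHB lines under doxycycline. Ectopic Lmo2 was at 15.5, 5.83, 19.7, 146 and 37.6 TPM in the cultures and 2.74 and 0 TPM in the embryo libraries, with the FL10 culture highest, against 737 to 5629 TPM in the eHB lines. For ectopic Mycn the culture values were 5.01, 6.29, 3.96, 7.80 and 21.3 TPM and the embryo values 2.51 and 0 TPM, for ectopic Gata2 11.47, 0.043, 0.560, 0.187 and 18.3 and 0.041 and 0 TPM, and for ectopic Sox17 0.131, 0, 18.5, 22.3 and 8.60 and 0 and 0 TPM. Embryo library 1, whose label names no transgene, thus held up to 2.74 TPM in these rows. The endogenous rows of Gata2 and Mycn were not called, at 18.5, 25.9, 44.1, 42.6 and 30.4 TPM against 37.9 and 45.9 TPM for Gata2 (adjusted p = 0.368) and 56.2, 35.4, 52.3, 31.99 and 27.3 TPM against 51.3 and 58.6 TPM for Mycn (adjusted p = 0.206). Gata2 was called lower with the ES-derived cultures alone (adjusted p = 0.0182).

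VEGF acts through Kdr and drives sprouting by tip cells, which make apelin, Esm1, Angpt2 and placental growth factor. In the VEGF and tip cell list, of 20 tested members, 8 rose and 4 fell (median log2 fold change 0.75). Apln, the ligand apelin, was at 2455, 2159, 2548, 2263 and 5423 TPM in the cultures and 109 and 120.3 TPM in the embryo libraries (log2 fold change 4.69 ± 0.52, adjusted p = 0.000785). Its receptor gene Aplnr went the other way, at 34.3, 149, 3.36, 12.7 and 19.09 TPM against 832 and 807 TPM (log2 fold change -4.22 ± 1.15, adjusted p = 0.0214). No culture overlapped the embryo libraries in either gene. Esm1, a secreted proteoglycan of tip cells, was at 719.5, 529.8, 462, 471 and 138 TPM against 27.3 and 36.5 TPM (log2 fold change 3.86 ± 0.64, adjusted p = 0.00308). Placental growth factor, Pgf, was at 72.7, 38.1, 97.1, 38.0 and 20.3 TPM against 3.18 and 3.33 TPM (log2 fold change 4.01 ± 0.68, adjusted p = 0.00351). The urokinase receptor Plaur was at 209, 324, 311, 412 and 607 TPM against 20.4 and 23.4 TPM (log2 fold change 4.09 ± 0.48, adjusted p = 0.000951). Angpt2, the Tie2 ligand that loosens vessels, was at 158, 141, 46.6, 89.9 and 978 TPM against 8.90 and 7.23 TPM (log2 fold change 5.13 ± 1.52, adjusted p = 0.0287), with the M5 culture far above the rest. The ligand genes Vegfa and Vegfb were lower, unlike Pgf: Vegfa was at 1.37, 1.47, 1.97, 2.48 and 1.89 TPM against 6.46 and 14.2 TPM (log2 fold change -2.51 ± 0.34, adjusted p = 0.00144). Vegfb was at 7.01, 7.81, 10.3, 10.7 and 7.76 TPM against 28.6 and 36.6 TPM (log2 fold change -1.90 ± 0.23, adjusted p = 0.000996). The VEGF and tip cell counts were 5 higher and 3 lower without embryo library 1 and 7 higher and 2 lower without embryo library 2. The calls of Aplnr and Angpt2 ended without either embryo library (adjusted p = 0.0888 and 0.0668 for Aplnr and 0.142 and 0.153 for Angpt2). For Aplnr the log2 fold change was -5.58 without the RB4.6.9 culture. For Angpt2 the log2 fold change was 3.73 without the M5 culture.

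FGF and VEGF receptors signal through ERK, which induces its own feedback inhibitors of the Sprouty, Spred and dual-specificity phosphatase families. In the FGF and ERK feedback list, of 21 tested members, 9 rose (median log2 fold change 1.01). Spred3 was at 71.2, 78.3, 84.9, 89.0 and 87.6 TPM in the cultures and 6.43 and 10.3 TPM in the embryo libraries (log2 fold change 3.31 ± 0.20, adjusted p = 0.000195). Spry4 was at 54.9, 75.7, 100.5, 106 and 111 TPM against 18.9 and 28.6 TPM (log2 fold change 1.92 ± 0.32, adjusted p = 0.00317). Dusp5 was at 56.7, 25.6, 94.2, 92.5 and 60.6 TPM against 14.6 and 20.6 TPM (log2 fold change 1.91 ± 0.49, adjusted p = 0.0175). The Spred3 values differed little among the 5 lines. The cyclic AMP response list was mixed: of 19 tested members of 23 in the table, 7 rose and 6 fell (median log2 fold change 1.14). Crem, whose short ICER forms are induced by cyclic AMP, was at 105.05, 103, 91.0, 89.9 and 89.2 TPM in the cultures and 15.95 and 15.9 TPM in the embryo libraries (log2 fold change 2.53 ± 0.15, adjusted p = 0.000195), and the cyclic AMP phosphodiesterases Pde4b and Pde4d were higher too (log2 fold change 2.77 ± 0.60, adjusted p = 0.00845 for Pde4b and log2 fold change 2.06 ± 0.40, adjusted p = 0.00583 for Pde4d). Rgs2, a brake on G protein signalling, was at 0.261, 0.560, 1.47, 1.83 and 0.303 TPM in the cultures and 133 and 106 TPM in the embryo libraries (log2 fold change -7.13 ± 0.71, adjusted p = 0.00062). In the immediate early and dissociation response list, of 23 tested members, 7 rose and 7 fell (median log2 fold change -0.20). The connective tissue growth factor Ctgf stood at 496, 519.8, 519, 399 and 671 TPM against 58.9 and 81.0 TPM (log2 fold change 2.90 ± 0.25, adjusted p = 0.000373). The related Cyr61 was at 329.8, 279, 563, 329 and 496 TPM against 54.4 and 81.0 TPM (log2 fold change 2.56 ± 0.34, adjusted p = 0.00133). The heat shock gene Hspa1b was lower at 2.52, 4.70, 6.70, 7.91 and 3.65 TPM against 33.0 and 101 TPM (log2 fold change -3.68 ± 0.48, adjusted p = 0.00127). Jun (0.31, 95% interval -0.16 to 0.77), Junb (-0.21, 95% interval -0.76 to 0.33) and Dnajb1 (-0.20, 95% interval -0.62 to 0.22) lay within 2-fold. The FGF and ERK counts were 4 higher without embryo library 1 and 4 higher without embryo library 2. The cyclic AMP counts were 3 higher and 4 lower without embryo library 1 and 5 higher and 3 lower without embryo library 2. The immediate early counts were 5 higher and 3 lower without embryo library 1 and 5 higher and 3 lower without embryo library 2. The calls of Dusp5, Pde4b and Pde4d ended without embryo library 1 (adjusted p = 0.121, 0.0777 and 0.0552). The calls of Dusp5 and Pde4b ended without embryo library 2 (adjusted p = 0.0825 and 0.0567). The calls of Pde4b, Ctgf and Cyr61 ended in 1 fit of all 31 libraries (adjusted p = 0.108, 0.0727 and 0.0808). For Hspa1b the log2 fold change was -2.82 without embryo library 2.

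Arterial identity is set by VEGF and Notch, venous identity by Nr2f2, and lymphatic endothelium makes Lyve1, podoplanin and Ccl21. In the arterial list, of 17 tested members, 6 rose and 2 fell (median log2 fold change 0.33). The Notch ligand Dll4 was at 407, 336, 369.7, 475 and 677 TPM in the cultures and 87.3 and 138 TPM in the embryo libraries (log2 fold change 2.02 ± 0.33, adjusted p = 0.00294), above both embryo libraries in every culture. The chemokine receptor Cxcr4 was at 645, 234, 144, 161 and 276 TPM against 46.5 and 51.7 TPM (log2 fold change 2.56 ± 0.65, adjusted p = 0.0164). Its ligand Cxcl12 was lower at 0.359, 0.097, 0.560, 0.520 and 0.502 TPM against 8.22 and 9.93 TPM (log2 fold change -4.39 ± 0.51, adjusted p = 0.000876), as was the arterial gap junction gene Gja4 at 56.3, 10.7, 37.0, 34.2 and 12.3 TPM against 205 and 222 TPM (log2 fold change -2.85 ± 0.57, adjusted p = 0.00617). Gja5, the other arterial connexin, ranged from 0.826 to 191 TPM over the cultures with RB3.6.5 highest, against 72.7 and 86.6 TPM (adjusted p = 0.743). In the Notch pathway list, of 17 tested members, 5 rose and 4 fell (median log2 fold change -0.24). The feedback gene Nrarp, a direct Notch target, was at 603, 478, 605, 576 and 627 TPM in the cultures and 130.1 and 160.4 TPM in the embryo libraries (log2 fold change 1.99 ± 0.16, adjusted p = 0.00028) with little spread among lines, and the target Hes1 at 95.9, 110.4, 112, 129 and 102 TPM against 52.6 and 72.2 TPM (log2 fold change 0.82 ± 0.16, adjusted p = 0.00535). Lfng, a glycosyltransferase that tunes Notch receptors, was lower at 17.5, 13.1, 10.97, 7.53 and 2.36 TPM against 61.7 and 71.2 TPM (log2 fold change -2.70 ± 0.56, adjusted p = 0.00754). The arterial counts were 1 higher and 2 lower without embryo library 1, 3 higher and 2 lower without embryo library 2, 4 higher and 4 lower without the RB4.6.9 culture and 3 higher and 2 lower without the FL10 culture. The Notch counts were 3 higher and 2 lower without embryo library 1, 4 higher and 1 lower without embryo library 2 and 3 higher and 4 lower without the FL10 culture. The call of Cxcr4 ended without either embryo library (adjusted p = 0.106 and 0.0994). The calls of Dll4 and Hes1 ended in 1 fit of all 31 libraries (adjusted p = 0.162 and 0.323). The call of Gja4 ended with the ES-derived cultures alone (adjusted p = 0.0542).

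In the venous and lymphatic list, of 12 tested members, 1 rose and 7 fell (median log2 fold change -0.92). Ccl21a was at 0, 0, 0, 0 and 0.188 TPM in the cultures and 25.7 and 39.0 TPM in the embryo libraries, a count ratio of 1073-fold (95% counting interval 296 to 8875) of embryo over culture, and Pdpn, podoplanin, at 0.141, 0.032, 0, 0 and 0 TPM against 3.66 and 4.33 TPM (log2 fold change -6.80 ± 1.03, adjusted p = 0.00212). The reads of Ccl21a may be shared with near-identical copies of the gene. The venous factor Nr2f2 was at 2.71, 15.4, 1.06, 6.12 and 2.28 TPM against 47.8 and 74.7 TPM (log2 fold change -3.26 ± 0.88, adjusted p = 0.0199). The 1 member that rose was Lyve1, the hyaluronan receptor of lymphatic, sinusoidal and early yolk sac endothelium (GRCm38 chromosome 7, 110850607 to 110863239), at 1367, 2171, 1803, 2802 and 1817 TPM in the cultures and 68.2 and 113 TPM in the embryo libraries (log2 fold change 4.47 ± 0.39, adjusted p = 0.000373). The yolk sac libraries held 2034 and 1796 TPM of Lyve1, within the range of the cultures. Stab2, a hyaluronan scavenger receptor of sinusoids, was at 317, 580.3, 273, 320.3 and 191 TPM in the cultures and 32.6 and 67.5 TPM in the embryo libraries (log2 fold change 2.78 ± 0.51, adjusted p = 0.00455), against 1233 and 798 TPM in yolk sac. In the sinusoidal list, which holds both genes, of 10 tested members of 11 in the table, 2 rose and 4 fell (median log2 fold change -0.67). Its member Oit3 was at 4.84, 9.10, 33.2, 7.54 and 42.1 TPM against 137 and 189.6 TPM (log2 fold change -3.07 ± 0.78, adjusted p = 0.0165), while Stab1 lay within 2-fold (0.44, 95% interval -0.07 to 0.96). Stab1 was called lower against yolk sac endothelium (adjusted p = 0.0039). Stab1 was called higher without embryo library 2 (adjusted p = 0.0496). The venous and lymphatic counts were 1 higher and 4 lower without embryo library 1 and 2 higher and 4 lower without embryo library 2. The sinusoidal counts were 2 higher and 2 lower without embryo library 1 and 3 higher and 2 lower without embryo library 2. The calls of Nr2f2 and Oit3 ended without either embryo library (adjusted p = 0.0693 and 0.0956 for Nr2f2 and 0.0674 and 0.0752 for Oit3). The calls of Nr2f2 and Stab2 ended in 1 fit of all 31 libraries (adjusted p = 0.0665 and 0.146). The call of Nr2f2 ended with the ES-derived cultures alone (adjusted p = 0.0839). For Pdpn the log2 fold change was -8.77 without the RB3.6.5 culture. For Nr2f2 the log2 fold change was -4.18 without the RB4.6.9 culture.

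Brain endothelium is shaped by Wnt and beta-catenin, which induce the glucose transporter Slc2a1, the lipid transporter Mfsd2a and the factors Foxf2 and Foxq1. In the brain endothelium list, of 17 tested members, 1 rose and 15 fell (median log2 fold change -5.09). Foxf2 and Foxq1 had no count in any culture and stood at 36.9 and 35.3 TPM and 27.8 and 27.2 TPM in the embryo libraries, at least 2128-fold and at least 1906-fold lower against a floor of 3 counts over the group. In yolk sac Foxf2 was at 0.911 and 1.38 TPM and Foxq1 at 3.50 and 3.65 TPM. Spock2, a matrix proteoglycan, was at 0.141, 0.194, 0.145, 0.177 and 0.397 TPM in the cultures and 56.4 and 74.1 TPM in the embryo libraries (log2 fold change -8.29 ± 0.38, adjusted p = 9.85e-05). Mfsd2a was at 0.566, 0.204, 0.373, 0.073 and 0.146 TPM in the cultures and 20.1 and 22.5 TPM in the embryo libraries (log2 fold change -6.29 ± 0.61, adjusted p = 0.000578). Slc2a1 was lower yet still high, at 164, 75.9, 164, 107 and 163 TPM in the cultures and 759 and 815 TPM in the embryo libraries (log2 fold change -2.56 ± 0.28, adjusted p = 0.000745). The 1 member that rose was the tight junction gene Ocln at 10.7, 21.5, 3.81, 7.71 and 7.45 TPM against 1.68 and 1.97 TPM (log2 fold change 2.49 ± 0.69, adjusted p = 0.0229). The call of Ocln ended without either embryo library (adjusted p = 0.13 and 0.118).

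In the Wnt pathway list, of 19 tested members of 21 in the table, 10 fell (median log2 fold change -1.38), and the other 9 tested members were not called. Axin2, a feedback inhibitor induced in most Wnt-responsive tissues, was at 0.479, 0.237, 0.238, 0.146 and 0.063 TPM in the cultures and 6.83 and 7.86 TPM in the embryo libraries (log2 fold change -4.99998 ± 0.61, adjusted p = 0.00099). The transcription factor Lef1 was at 0.152, 0.334, 0.850, 0.416 and 0.031 TPM against 22.6 and 20.3 TPM (log2 fold change -5.92 ± 0.83, adjusted p = 0.00167). Its relative Tcf7 was at 5.46, 1.58, 1.55, 1.30 and 1.26 TPM against 28.7 and 29.8 TPM (log2 fold change -3.73 ± 0.57, adjusted p = 0.00224). The inhibitor Nkd1 was at 0.065, 0.463, 0.062, 0.083 and 0.073 TPM against 31.7 and 30.8 TPM (log2 fold change -7.63 ± 0.80, adjusted p = 0.000683). The receptor Fzd10 was at 0.936, 0.603, 0.052, 0.052 and 0 TPM against 70.8 and 76.0 TPM (log2 fold change -7.73 ± 1.07, adjusted p = 0.00157). In each of these 5 genes all cultures lay below both embryo libraries. The co-receptors Gpr124 (-0.23, 95% interval -0.85 to 0.38) and Tspan12 (0.16, 95% interval -0.66 to 0.98) lay within 2-fold. Lef1 stood at 0.093 and 0.480 TPM and Fzd10 at 0.528 and 1.46 TPM in yolk sac. For Tcf7 and Fzd10 the log2 fold change was -4.37 and -8.47 without the RB3.6.5 culture. For Nkd1 the log2 fold change was -8.90 without the RB4.6.9 culture.

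Among endocardial and patterning factors, of 21 tested members, 16 fell (median log2 fold change -3.77). Tcf15, a basic helix-loop-helix factor of somites and of heart and muscle endothelium, was at 1.502, 0.818, 0.477, 0.146 and 0.157 TPM in the cultures and 93.2 and 109 TPM in the embryo libraries (log2 fold change -7.32 ± 0.70, adjusted p = 0.000578). Tbx1, a T-box factor of pharyngeal mesoderm and brain and lymphatic vessels, was at 1.14, 0.742, 0.995, 1.35 and 0.178 TPM against 77.4 and 119.8 TPM (log2 fold change -6.79 ± 0.52, adjusted p = 0.000275). Hapln1, a hyaluronan link protein of the endocardium, was at 2.25, 0.786, 0.228, 0.780 and 0.575 TPM against 82.8 and 75.8 TPM (log2 fold change -6.43 ± 0.67, adjusted p = 0.000657). The GATA factor Gata4 of heart and liver sinusoids was at 0.044, 1.51, 0.891, 1.63 and 0.073 TPM against 44.2 and 46.9 TPM (log2 fold change -5.77 ± 1.06, adjusted p = 0.00455). The cultures lay below both embryo libraries in all 4 genes. Nfatc1, the defining factor of endocardium, was at 24.1, 24.7, 25.1, 19.3 and 35.7 TPM in the cultures and 33.7 and 47.8 TPM in the embryo libraries (log2 fold change -0.66 ± 0.23, adjusted p = 0.0499), with the M5 culture between the embryo values. This call ended under 12 of 17 alternatives, among them the fits without any 1 library other than the M5 culture (adjusted p = 0.00638 to 0.514 over all 17). Npr3, its natriuretic peptide receptor partner in endocardium, was at 25.1, 25.99, 89.2, 69.7 and 4.50 TPM against 24.9 and 33.0 TPM, spread on both sides of the embryo values. Cardiac and skeletal muscle markers, 12 in the table, summed to 7.92, 11.6, 9.87, 5.38 and 20.6 TPM in the cultures and 48.7 and 34.0 TPM in the embryo libraries. The part of such cells in these drops was not tested. For Hapln1 the log2 fold change was -7.05 without the RB3.6.5 culture.

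Hox genes, which record position along the body axis, differed by cluster and by line. In the Hox list, of 26 tested members of 38 in the table, 5 rose and 9 fell (median log2 fold change -1.14). Hoxa9 and Hoxa7 were nearly silent in culture: Hoxa9 was at 0, 0, 0, 0 and 0.052 TPM in the cultures and 6.61 and 9.67 TPM in the embryo libraries, and Hoxa7 at 0, 0, 0, 0 and 0.042 TPM against 6.16 and 5.83 TPM. Their count ratios of embryo over culture were 937-fold (95% counting interval 258 to 7758) for Hoxa9 and 907-fold (95% counting interval 162 to 35921) for Hoxa7. A HoxD gene went the other way, Hoxd8 at 249, 110.5, 162, 84.8 and 41.2 TPM against 15.6 and 19.4 TPM (log2 fold change 2.87 ± 0.68, adjusted p = 0.0126). HoxB genes split the lines. Hoxb2 was at 36.4, 19.5, 0.093, 0.042 and 0.199 TPM in the cultures and 9.13 and 11.2 TPM in the embryo libraries, and Hoxb9 at 11.6, 21.1, 0.155, 0.094 and 0.031 TPM against 8.35 and 9.15 TPM. Both ES-derived cultures stood above both embryo libraries for each gene, and the other 3 cultures between 0.0310 and 0.199 TPM (adjusted p = 0.962 for Hoxb2 and 0.884 for Hoxb9 over all lines). Hoxa5 was at 0.131, 0.549, 0.176, 2.25 and 18.2 TPM against 15.5 and 16.1 TPM, with the M5 culture alone near the embryo level (adjusted p = 0.375). Hoxb2 was called lower with the FL4, FL10 and M5 cultures alone (adjusted p = 0.00241). Hoxb2 was called higher with the ES-derived cultures alone (adjusted p = 0.0106). Hoxb9 was called lower with the FL4, FL10 and M5 cultures alone (adjusted p = 0.00221). Hoxa5 was called lower without the M5 culture (adjusted p = 0.0137) and with the ES-derived cultures alone (adjusted p = 0.000977). The Hox counts were no longer any higher and 5 lower without embryo library 1, 1 higher and 4 lower without embryo library 2, 3 higher and 9 lower without the FL10 culture and 6 higher and 14 lower without the M5 culture. The call of Hoxd8 ended without either embryo library (adjusted p = 0.0961 and 0.0797).

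**Figure D4:**
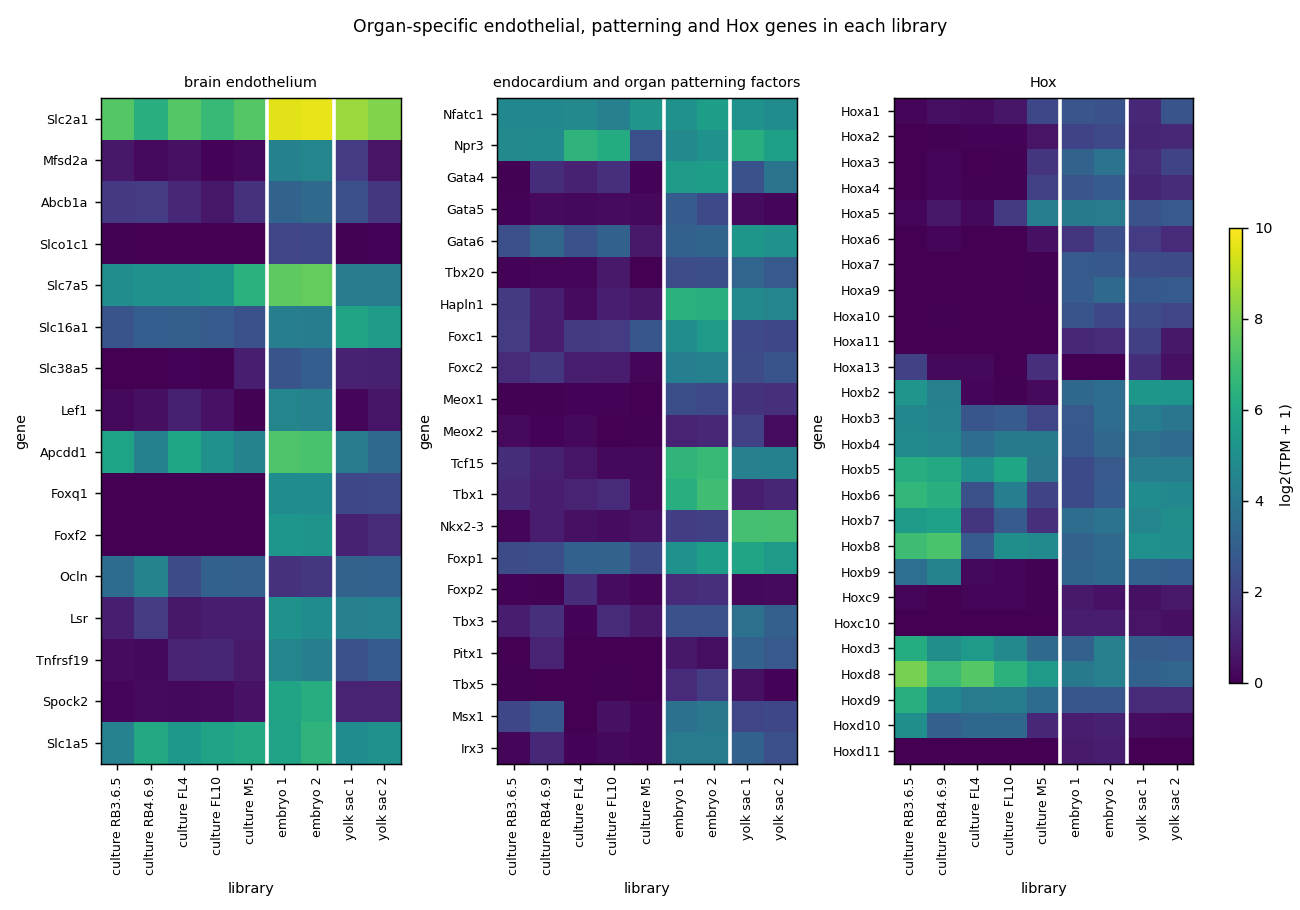
Heat map of log2(TPM + 1) (colour scale 0 to 10) for tested members of the brain endothelium, endocardium and organ patterning, and Hox lists (rows) in the 5 cultures, 2 embryo and 2 yolk sac libraries (columns, parted by white lines). Most brain and patterning rows are dark in every culture and lit in the embryo libraries, and Hoxb2, Hoxb6 and Hoxb9 are lit in the RB3.6.5 and RB4.6.9 cultures but low in FL4 and M5.

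Flow over the cell surface induces Klf2, which in turn maintains prostacyclin synthesis and an anticoagulant surface. In the flow-responsive and vasoregulatory list, of 24 tested members of 25 in the table, 5 rose and 8 fell (median log2 fold change -0.84). Klf2 (GRCm38 chromosome 8, 72319033 to 72321656) was at 6.70, 2.79, 5.80, 8.89 and 11.7 TPM in the cultures and 207 and 229.7 TPM in the embryo libraries (log2 fold change -4.94 ± 0.44, adjusted p = 0.000442), below both embryo libraries in every culture. Yolk sac endothelium held 248 and 259.7 TPM. The prostacyclin synthase gene Ptgis was at 0.087, 0.118, 0.041, 0.104 and 0.230 TPM against 42.4 and 27.4 TPM (log2 fold change -8.26 ± 0.50, adjusted p = 0.000195). The cyclooxygenase Ptgs1 upstream of it was at 1.43, 1.05, 0.591, 0.697 and 5.34 TPM against 34.6 and 47.8 TPM (log2 fold change -4.49 ± 0.80, adjusted p = 0.00413). The glycocalyx protein podocalyxin, Podxl, was at 26.5, 32.1, 28.5, 35.8 and 57.3 TPM against 217 and 282 TPM (log2 fold change -2.78 ± 0.29, adjusted p = 0.000683). Other members of the list were higher: Klf6 was at 224, 234, 217, 214 and 307 TPM against 42.9 and 58.6 TPM (log2 fold change 2.24 ± 0.22, adjusted p = 0.000565). Ramp3, a partner of the adrenomedullin receptor, was at 1085, 671, 1704, 1337 and 741 TPM against 40.2 and 34.0 TPM (log2 fold change 4.87 ± 0.48, adjusted p = 0.000614). Cyp1a1, a target of the aryl hydrocarbon receptor, was at 28.4, 44.3, 0.839, 27.2 and 18.4 TPM against 0 and 0.072 TPM, a count ratio of 854-fold (95% counting interval 236 to 7055), with the FL4 culture lowest. The nitric oxide synthase Nos3, a known Klf2 target, was at 101, 85.1, 183, 114 and 165 TPM against 201 and 238 TPM (adjusted p = 0.0651). The anticoagulant receptor Thbd was at 31.2, 5.21, 0.529, 0.666 and 1.003 TPM against 55.4 and 79.4 TPM (adjusted p = 0.107). Nos3 was called lower without the FL4 culture (adjusted p = 0.0339), without the M5 culture (adjusted p = 0.0379), with the ES-derived cultures alone (adjusted p = 0.00264), in the DESeq2 Wald test (adjusted p = 0.0386) and against yolk sac endothelium (adjusted p = 0.0264). Thbd was called lower without the RB3.6.5 culture (adjusted p = 0.00812), with the FL4, FL10 and M5 cultures alone (adjusted p = 0.000793), in limma on log2(TPM + 1) (adjusted p = 0.0221), in limma on log2(TPM + 0.1) (adjusted p = 0.0296) and against yolk sac endothelium (adjusted p = 0.0227). The flow-responsive counts were 3 higher and 5 lower without embryo library 1 and 3 higher and 6 lower without embryo library 2. The call of Cyp1a1 ended without either embryo library (adjusted p = 0.0781 and 0.0531). For Ptgs1 the log2 fold change was -5.43 without the M5 culture.

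In the hemostasis and leukocyte adhesion list, of 17 tested members of 18 in the table, 8 rose and 4 fell (median log2 fold change 0.72). The leukocyte adhesion genes parted. Sele, E-selectin, was at 10.6, 25.96, 12.98, 31.5 and 15.1 TPM in the cultures and 0.113 and 0 TPM in the embryo libraries (log2 fold change 8.15 ± 1.02, adjusted p = 0.00113). Vcam1 was at 0.022, 0.129, 0.093, 0.343 and 0.240 TPM against 6.40 and 7.81 TPM (log2 fold change -5.43 ± 0.76, adjusted p = 0.00159). Entpd1, CD39, the ectonucleotidase that removes platelet-activating ATP and ADP, was at 0.141, 0.075, 0, 0 and 0.021 TPM in the cultures and 48.9 and 50.7 TPM in the embryo libraries (log2 fold change -9.95 ± 0.74, adjusted p = 0.000265). The protein C receptor Procr was at 360.5, 585, 294, 604 and 892 TPM against 44.5 and 51.2 TPM (log2 fold change 3.52 ± 0.52, adjusted p = 0.00202). The urokinase gene Plau, whose receptor Plaur also rose, was at 1009, 739, 333, 708 and 739 TPM against 109.9 and 128 TPM (log2 fold change 2.56 ± 0.42, adjusted p = 0.00303). The hemostasis counts were 5 higher and 2 lower without embryo library 1 and 5 higher and 2 lower without embryo library 2. For Sele the log2 fold change was 7.26 without embryo library 2. For Entpd1 the log2 fold change was -10.79 without the RB3.6.5 culture.

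The matrix list held drops in fibrillar collagens beside rises in Sparc, Col4a1 and Col4a2. Of 23 tested members, 4 rose, a smaller share than over all genes, and 9 fell (median log2 fold change -2.005). Lamb1, another member, lay within 2-fold. Sparc, which binds collagen IV, was at 7394, 5343, 5554, 5506 and 5483 TPM in the cultures and 1736 and 1968 TPM in the embryo libraries (log2 fold change 1.65 ± 0.19, adjusted p = 0.000812). Col4a1 was at 3359, 3010.3, 4658, 4733 and 3260.1 TPM against 1200.0 and 2181 TPM (log2 fold change 1.19 ± 0.28, adjusted p = 0.0123). Col4a2 was at 2255, 1812, 3010.3, 3059 and 2256 TPM against 705 and 1258 TPM (log2 fold change 1.35 ± 0.28, adjusted p = 0.00732). The fibrillar collagen Col5a2 was at 0.218, 0.151, 0.052, 1.01 and 0.021 TPM against 66.1 and 96.9 TPM (log2 fold change -8.14 ± 1.02, adjusted p = 0.00111). Col3a1 was at 0.392, 0.151, 0.135, 0.135 and 0.105 TPM against 19.08 and 28.99 TPM (log2 fold change -7.02 ± 0.46, adjusted p = 0.000231). Col1a2 was at 0, 0.161, 0, 0 and 0.010 TPM against 4.31 and 8.81 TPM (log2 fold change -7.31 ± 1.34, adjusted p = 0.00455). The summed mesenchyme markers, which include Col1a2 and Col3a1, were lower in every culture than in both embryo libraries, as given above, and their part in the collagen drops was not tested. Sparcl1, a secreted relative of Sparc that mature vessels make, was at 26.1, 15.9, 25.5, 18.3 and 5.57 TPM against 277 and 436 TPM (log2 fold change -4.29 ± 0.48, adjusted p = 0.000785). The matrix counts were 1 higher and 8 lower without embryo library 1. The calls of Col4a1 and Col4a2 ended without embryo library 1 (adjusted p = 0.0928 and 0.0627). The calls of Sparc, Col4a1 and Col4a2 ended in 1 fit of all 31 libraries (adjusted p = 0.0924, 0.3 and 0.253). The call of Col4a1 ended with the ES-derived cultures alone (adjusted p = 0.0761). For Col1a2 the log2 fold change was -10.81 without the RB4.6.9 culture. For Col5a2 the log2 fold change was -9.45 without the FL10 culture.

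TGF-beta and BMP bind related receptors, and SB431542 blocks the TGF-beta branch while BMP4 feeds the other. In the TGF-beta list, of 20 tested members, 6 rose and 6 fell (median log2 fold change 0.16). The feedback inhibitor Smad7, a target of both branches, was at 0.599, 1.17, 2.73, 3.09 and 2.82 TPM in the cultures and 21.2 and 33.1 TPM in the embryo libraries (log2 fold change -3.70 ± 0.56, adjusted p = 0.00215). The target Tgfbi was at 5.90, 5.39, 2.62, 3.37 and 0.125 TPM against 79.2 and 94.0 TPM (log2 fold change -4.64 ± 0.87, adjusted p = 0.00496). Ltbp4, which tethers latent TGF-beta to matrix, was at 0.163, 0.312, 1.26, 0.822 and 0.439 TPM against 31.9 and 59.1 TPM (log2 fold change -6.26 ± 0.65, adjusted p = 0.000657). Members that rose included Ctgf and Cdkn1a, given in other lists, and the type II receptor Tgfbr2 (log2 fold change 1.49 ± 0.35, adjusted p = 0.0114), while the receptors Tgfbr1 (0.07, 95% interval -0.40 to 0.55) and Acvrl1 (0.24, 95% interval -0.39 to 0.87) lay within 2-fold. In the BMP list, of 20 tested members, 4 rose and 10 fell (median log2 fold change -2.02). The BMP target Id1 was at 37.2, 79.7, 43.7, 76.7 and 12.7 TPM in the cultures and 201 and 203 TPM in the embryo libraries (log2 fold change -2.02 ± 0.57, adjusted p = 0.0238), below both embryo libraries in every culture although BMP4 was in the medium. The ligand Bmp2 was lower (log2 fold change -4.35 ± 0.91, adjusted p = 0.00771). The ligand Bmp4 was higher at 72.8, 85.1, 100.02, 108 and 24.7 TPM against 20.1 and 24.3 TPM (log2 fold change 1.81 ± 0.53, adjusted p = 0.0273). The TGF-beta counts were 2 higher and 5 lower without embryo library 1 and 2 higher and 4 lower without embryo library 2. The BMP counts were 1 higher and 5 lower without embryo library 1 and 1 higher and 4 lower without embryo library 2. The calls of Tgfbr2, Id1 and Bmp4 ended without either embryo library (adjusted p = 0.0955 and 0.0608 for Tgfbr2, 0.123 and 0.0822 for Id1 and 0.147 and 0.127 for Bmp4). The call of Id1 ended without the FL4 culture (adjusted p = 0.0504). The calls of Tgfbr2, Id1 and Bmp4 ended in 1 fit of all 31 libraries (adjusted p = 0.143, 0.0983 and 0.364). The call of Bmp4 ended with the FL4, FL10 and M5 cultures alone (adjusted p = 0.0734). For Bmp2 the log2 fold change was -5.31 without the M5 culture.

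Adhesion and guidance genes moved both ways, and the balance of rises and drops differed from list to list. In the integrin and ephrin list, of 25 tested members of 26 in the table, 10 rose and 5 fell (median log2 fold change 0.38). Itgb3, the beta 3 integrin of sprouting vessels, was at 111, 174, 299, 341 and 405 TPM in the cultures and 3.74 and 6.61 TPM in the embryo libraries (log2 fold change 5.70 ± 0.69, adjusted p = 0.000995). The laminin receptor Itga3 was at 231, 255, 557, 602 and 911 TPM against 30.05 and 37.9 TPM (log2 fold change 3.92 ± 0.67, adjusted p = 0.00359). Itgb5 was lower at 0.718, 1.23, 0.269, 1.17 and 0.105 TPM against 14.01 and 17.5 TPM (log2 fold change -4.48 ± 0.76, adjusted p = 0.00342). In the semaphorin, plexin, slit and netrin list, of 24 tested members, 9 rose and 4 fell (median log2 fold change 0.75). Sema3e, which repels endothelial cells through Plxnd1, was at 15.5, 6.27, 28.8, 20.3 and 22.9 TPM in the cultures and 0.062 and 0.145 TPM in the embryo libraries (log2 fold change 7.57 ± 0.83, adjusted p = 0.000745). Plxna2 was at 84.7, 107, 146, 156 and 210.0 TPM against 10.6 and 18.3 TPM (log2 fold change 3.30 ± 0.44, adjusted p = 0.00135). In the metalloprotease list, of 20 tested members of 21 in the table, 5 rose and 2 fell (median log2 fold change 0.69). Adamts5 was at 12.9, 47.9, 20.8, 61.5 and 19.6 TPM against 0.959 and 1.66 TPM (log2 fold change 4.66 ± 0.82, adjusted p = 0.00389), with RB4.6.9 and FL10 highest, while yolk sac held 64.1 and 52.1 TPM. In the mesenchymal transition list, of 15 tested members, 3 rose and 6 fell (median log2 fold change -0.82). Its repressors Zeb1 (log2 fold change 1.22 ± 0.16, adjusted p = 0.00119) and Zeb2 (log2 fold change 1.41 ± 0.25, adjusted p = 0.00408) were higher, and N-cadherin, Cdh2, was lower at 14.2, 11.8, 21.5, 16.3 and 14.2 TPM against 68.8 and 87.2 TPM (log2 fold change -2.33 ± 0.19, adjusted p = 0.000336), where yolk sac held 5.47 and 4.35 TPM. The integrin and ephrin counts were 4 higher and 4 lower without embryo library 1 and 6 higher and 4 lower without embryo library 2. The guidance counts were 4 higher and 3 lower without embryo library 1 and 8 higher and 2 lower without embryo library 2. The metalloprotease counts were 2 higher and 2 lower without embryo library 1 and 2 higher and 2 lower without embryo library 2. The mesenchymal counts were 2 higher and 3 lower without embryo library 1 and 2 higher and 3 lower without embryo library 2.

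Cell cycle genes moved together: of 24 tested members, 24 fell (median log2 fold change -3.10), and 22 of them fell beyond 2-fold. Ccnb2, cyclin B2, which takes cells into mitosis, was at 12.8, 6.90, 17.3, 7.54 and 4.42 TPM in the cultures and 144 and 135 TPM in the embryo libraries (log2 fold change -3.86 ± 0.44, adjusted p = 0.000836). The mitotic kinase Aurkb was at 5.25, 3.75, 14.1, 7.48 and 2.83 TPM against 92.7 and 93.9 TPM (log2 fold change -3.83 ± 0.52, adjusted p = 0.00153). The replication helicase subunit Mcm5 was at 14.02, 10.3, 31.1, 17.3 and 9.72 TPM against 214 and 188 TPM (log2 fold change -3.64 ± 0.41, adjusted p = 0.000808). Mki67, which encodes the proliferation marker Ki-67, was at 8.62, 4.33, 21.1, 10.1 and 8.35 TPM against 70.3 and 114 TPM (log2 fold change -3.13 ± 0.48, adjusted p = 0.00225). The FL4 culture was the highest of the cultures in all 4 genes, and no culture reached either embryo library. The eHB lines that gave rise to the cultures, with doxycycline, held 95.6 to 119 TPM of Mki67 and 66.4 to 135 TPM of Ccnb2.

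Promoters of mitotic genes are known for CCAAT boxes, bound by NF-Y, and for the CHR element, whose core is TTTGAA. The 120 bases before the start site are printed for 4 members, chosen after their values were seen, from the RefSeq promoter table of GRCm38.p6, 5′ to 3′ on the gene's strand. Capitals mark CCAAT and TTTGAA, written as ATTGG and TTCAAA where the match is on the other strand. They lie at chr9:70421555-70421674, minus strand for Ccnb2, chr13:100786487-100786606, minus strand for Ccnb1, chr10:69352913-69353032, minus strand for Cdk1 (the main mitotic kinase) and chr19:37376262-37376381, plus strand for Kif11 (a spindle motor):
Ccnb2: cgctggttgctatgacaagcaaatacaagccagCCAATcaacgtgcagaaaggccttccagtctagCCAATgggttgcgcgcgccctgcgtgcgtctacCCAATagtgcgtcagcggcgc
Ccnb1: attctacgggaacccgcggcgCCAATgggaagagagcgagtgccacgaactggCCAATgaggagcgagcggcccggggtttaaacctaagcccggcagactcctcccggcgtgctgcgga
Cdk1: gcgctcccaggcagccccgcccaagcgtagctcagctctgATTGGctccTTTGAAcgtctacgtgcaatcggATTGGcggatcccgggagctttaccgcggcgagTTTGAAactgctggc
Kif11: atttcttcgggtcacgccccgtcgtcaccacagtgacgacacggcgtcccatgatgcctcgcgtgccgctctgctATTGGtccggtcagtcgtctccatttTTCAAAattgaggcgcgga

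Ccnb1 fell from 132 and 104 TPM in the embryo libraries to 9.70, 5.94, 19.05, 11.9 and 4.90 TPM in the cultures (log2 fold change -3.56 ± 0.46, adjusted p = 0.00124), Cdk1 likewise (log2 fold change -2.08 ± 0.31, adjusted p = 0.00217) and Kif11 too (log2 fold change -3.07 ± 0.47, adjusted p = 0.00236). The start sites of 20 of the 24 list members matched the table. In the 250 bases before the start, on both strands, CCAAT was found in 16 of 20 (80.0%), against 37.5% of all 27025 genes with a window. TTTGAA was found in 6 of 20 (30%), against 18.3% of all. The genes with a window include genes not tested here, whereas the list members were all tested, so these shares are not like for like. A match is a run of letters in this window and does not show that a factor binds there.

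Cyclin-dependent kinase inhibitors went in different directions. In the list of these inhibitors and of p53 targets, of 22 tested members, 13 rose and 3 fell (median log2 fold change 2.28). Cdkn2b, which encodes p15INK4b next to Cdkn2a (GRCm38 chromosome 4, 89306299 to 89311039 and 89274471 to 89294653), was at 73.2, 97.4, 97.02, 185 and 173 TPM in the cultures and 0.186 and 0 TPM in the embryo libraries (log2 fold change 10.14 ± 0.90, adjusted p = 0.00044). Cdkn1a, p21, a main p53 target, was at 652, 1132, 913, 1645 and 2158 TPM in the cultures and 32.4 and 29.5 TPM in the embryo libraries (log2 fold change 5.38 ± 0.63, adjusted p = 0.000893). The eHB lines held 249.9 to 405 TPM of Cdkn2a, within the range of the cultures, and 538 to 715 TPM of Cdkn1a, which overlapped the lowest culture. Their 3.52 to 9.98 TPM of Cdkn2b lay below all 5 cultures. The p53 target Trp53inp1 was at 104, 127, 64.8, 98.4 and 99.5 TPM against 4.55 and 6.67 TPM (log2 fold change 4.15 ± 0.33, adjusted p = 0.000288), and Pmaip1 (Noxa) at 17.3, 28.4, 21.4, 34.8 and 3.51 TPM against 1.30 and 1.60 TPM (log2 fold change 3.86 ± 0.89, adjusted p = 0.0111). Cdkn1c, p57, the imprinted inhibitor of the family, went the other way at 28.95, 6.69, 14.4, 19.8 and 2.99 TPM in the cultures and 440.2 and 468 TPM in the embryo libraries (log2 fold change -4.99 ± 0.69, adjusted p = 0.0016). Cdkn1b, p27, lay within 2-fold (-0.28, 95% interval -0.79 to 0.23). In the list of DNA methylation enzymes, of 10 tested members of 11 in the table, 2 rose and 5 fell (median log2 fold change -0.82). Uhrf1, which guides the maintenance enzyme to replicated DNA, was at 13.8, 10.5, 37.2, 19.4 and 12.6 TPM against 191 and 195 TPM (log2 fold change -3.41 ± 0.44, adjusted p = 0.00123). That enzyme, Dnmt1, was at 34.2, 25.9, 65.6, 48.2 and 26.02 TPM against 150.2 and 203 TPM (log2 fold change -2.15 ± 0.34, adjusted p = 0.00263). The p53 and inhibitor counts were 12 higher and 1 lower without embryo library 1. The methylation enzyme counts were no longer any higher and 4 lower without embryo library 1. The call of Pmaip1 ended without either embryo library (adjusted p = 0.0875 and 0.0749). For Cdkn2b the log2 fold change was 9.26 without embryo library 2.

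**Figure D5:**
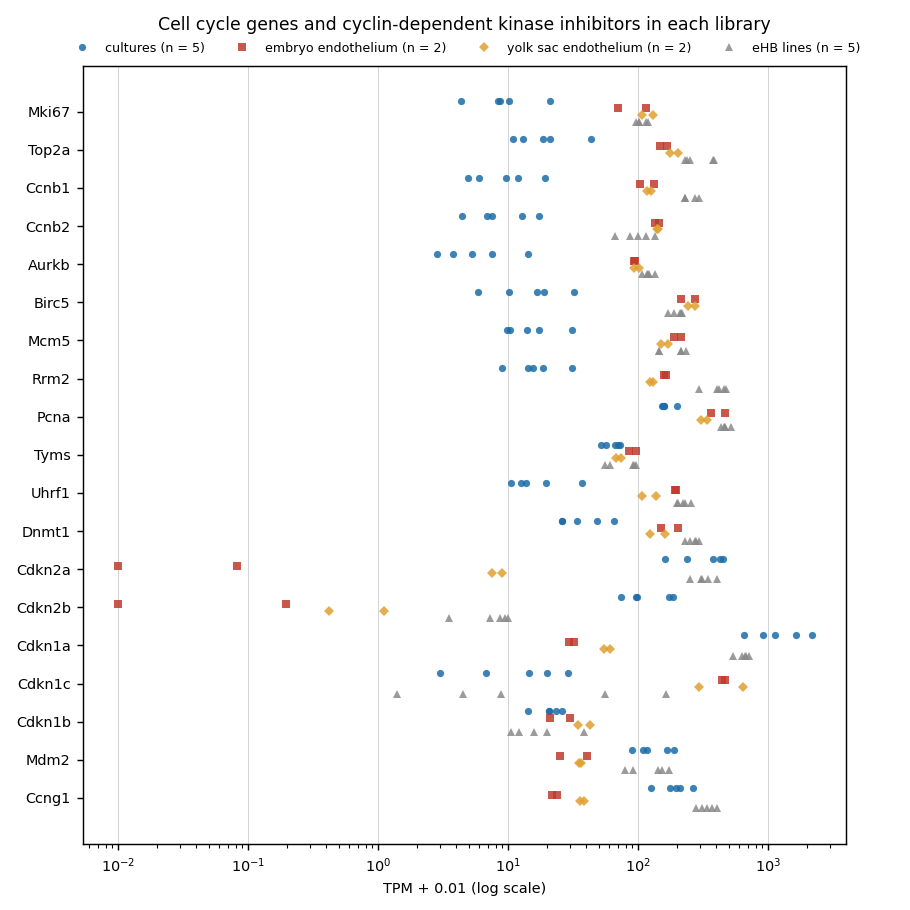
TPM of 19 cell cycle genes, DNA methylation enzymes, cyclin-dependent kinase inhibitors and p53 targets (x axis, log scale, with 0.01 TPM added), 1 point for each library of the 5 cultures, 2 embryo and 2 yolk sac libraries and the 5 eHB lines. Cell cycle genes are lower in all 5 cultures than in both embryo libraries, and those other than Tyms are also below the yolk sac and eHB libraries, Cdkn2a, Cdkn2b and Cdkn1a are higher than in both primary groups, and Cdkn1c is lower.

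Many glycolytic genes are targets of the hypoxia factor HIF. In the hypoxia and glycolysis list, of 27 tested members, 3 rose and 13 fell (median log2 fold change -1.10). Pfkl, the liver form of phosphofructokinase, was at 11.9, 13.2, 22.4, 15.3 and 13.8 TPM in the cultures and 173 and 184 TPM in the embryo libraries (log2 fold change -3.56 ± 0.22, adjusted p = 0.000195), with little spread on either side. Hk2, a hexokinase that HIF induces, was at 0.860, 0.990, 2.68, 1.90 and 0.596 TPM against 6.08 and 9.94 TPM (log2 fold change -2.51 ± 0.53, adjusted p = 0.00793). The HIF target Ankrd37 was at 0.795, 0.915, 2.75, 2.10 and 6.09 TPM against 23.3 and 21.2 TPM (log2 fold change -3.16 ± 0.74, adjusted p = 0.0115). Ldha, lactate dehydrogenase A, was at 472, 471, 612, 439 and 618 TPM against 1571 and 1233 TPM (log2 fold change -1.45 ± 0.21, adjusted p = 0.00171). Bnip3, a mitophagy receptor and HIF target, was at 8.77, 5.71, 7.69, 5.91 and 6.67 TPM against 21.4 and 32.5 TPM (log2 fold change -1.95 ± 0.22, adjusted p = 0.000843). Not all members moved that way: Ndrg1, another HIF target, was at 481, 401, 192, 221 and 432 TPM against 27.1 and 30.7 TPM (log2 fold change 3.58 ± 0.48, adjusted p = 0.00139). Pfkfb3, the main driver of endothelial glycolysis, was at 66.2, 75.7, 83.4, 101 and 81.5 TPM against 31.2 and 38.4 TPM (log2 fold change 1.30 ± 0.16, adjusted p = 0.00111). Pgk1 (0.48, 95% interval -0.03 to 0.98), Aldoa (-0.20, 95% interval -0.61 to 0.21) and Gpi1 (-0.01, 95% interval -0.33 to 0.31) lay within 2-fold. Pgk1 was called higher in 1 fit of all 31 libraries (adjusted p = 0.0346), in limma on log2(TPM + 1) (adjusted p = 0.0375), in limma on log2(TPM + 0.1) (adjusted p = 0.0374) and against yolk sac endothelium (adjusted p = 0.0192). Aldoa was called lower against yolk sac endothelium (adjusted p = 0.0388). The call of Ankrd37 ended without embryo library 1 (adjusted p = 0.0718). The call of Hk2 ended without embryo library 2 (adjusted p = 0.0608). The call of Pfkfb3 ended in 1 fit of all 31 libraries (adjusted p = 0.0883). For Ankrd37 the log2 fold change was -3.81 without the M5 culture.

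HIF binds a short element with the core ACGTG. The 120 bases before the start of 4 members that fell, chosen after their values were seen, are printed from the same table with ACGTG in capitals, or CACGT where the match is on the other strand. The 2 readings overlap where CACGTG stands in capitals. They lie at chr4:119108625-119108744, plus strand for Slc2a1, chr7:46845684-46845803, plus strand for Ldha (the first of its 2 windows), chr7:138909507-138909626, minus strand for Bnip3 and chr19:41911751-41911870, plus strand for Pgam1 (phosphoglycerate mutase):
Slc2a1: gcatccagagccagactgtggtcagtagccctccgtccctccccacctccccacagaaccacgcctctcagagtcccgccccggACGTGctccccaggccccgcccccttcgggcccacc
Ldha: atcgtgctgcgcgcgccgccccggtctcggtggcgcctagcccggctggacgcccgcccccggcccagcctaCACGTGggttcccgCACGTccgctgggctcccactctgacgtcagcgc
Bnip3: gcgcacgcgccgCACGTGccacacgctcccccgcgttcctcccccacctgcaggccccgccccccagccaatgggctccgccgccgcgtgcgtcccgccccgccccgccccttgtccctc
Pgam1: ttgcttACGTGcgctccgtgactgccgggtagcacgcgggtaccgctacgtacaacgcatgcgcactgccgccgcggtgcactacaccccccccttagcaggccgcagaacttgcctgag

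Pgam1 was at 231, 251, 228, 209.5 and 232 TPM against 570.0 and 464 TPM (log2 fold change -1.19 ± 0.16, adjusted p = 0.00132). For ACGTG, 25 of 27 list members matched the table, and 15 of the 25 (60.0%) held it in the 250 bases before a start, against 18.5% of all genes with a window. Here too the genes with a window include genes not tested. The proliferation list held it in 8 of 20 (40.0%), and the hypoxia and glycolysis list held CCAAT in 10 of 25 (40.0%).

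Cells make cholesterol from acetyl-CoA through a chain of enzymes that SREBP2, the product of Srebf2, switches on. In the sterol list, of 22 tested members of 23 in the table, 14 rose (median log2 fold change 0.64), with 6 members within 2-fold. The late-pathway enzyme Nsdhl was at 117, 108, 93.8, 87.0 and 104.6 TPM in the cultures and 29.2 and 23.96 TPM in the embryo libraries (log2 fold change 1.92 ± 0.20, adjusted p = 0.000657). Hsd17b7 was at 32.3, 33.9, 22.4, 22.6 and 26.4 TPM against 6.35 and 9.63 TPM (log2 fold change 1.796 ± 0.25, adjusted p = 0.00153). Tm7sf2 was at 83.1, 37.2, 41.4, 30.7 and 33.5 TPM against 12.8 and 11.7 TPM (log2 fold change 1.86 ± 0.43, adjusted p = 0.0117). The regulator of these genes, Srebf2, lay within 2-fold (0.02, 95% interval -0.25 to 0.29), and so did the pathway enzyme Dhcr7 (0.04, 95% interval -0.48 to 0.55). In the fatty acid list, of 22 tested members, 11 rose and 3 fell (median log2 fold change 0.61). Scd1, a desaturase, was at 87.9, 41.7, 40.1, 31.2 and 63.0 TPM in the cultures and 1.81 and 1.95 TPM in the embryo libraries (log2 fold change 4.79 ± 0.51, adjusted p = 0.000709). Gpihbp1, which anchors lipoprotein lipase on capillaries, was at 327, 322, 187, 147 and 237 TPM against 36.7 and 37.9 TPM (log2 fold change 2.70 ± 0.38, adjusted p = 0.00171), while the lipase gene Lpl itself was at 0.642, 0.484, 0.041, 1.15 and 0.031 TPM against 10.6 and 26.2 TPM (log2 fold change -5.24 ± 1.05, adjusted p = 0.0063). The sterol counts were 8 higher without embryo library 1 and 6 higher without embryo library 2. The fatty acid counts were 8 higher and 1 lower without embryo library 1 and 7 higher and 1 lower without embryo library 2. The call of Tm7sf2 ended without either embryo library (adjusted p = 0.0667 and 0.0874). The call of Gpihbp1 ended in 1 fit of all 31 libraries (adjusted p = 0.171). For Lpl the log2 fold change was -4.60 without embryo library 2. For Lpl the log2 fold change was -5.87 without the FL10 culture.

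In the oxidative stress list, of 21 tested members, 7 rose and 1 fell (median log2 fold change 0.50). Srxn1, sulfiredoxin, a target of the factor NRF2, was at 68.4, 72.2, 45.5, 57.5 and 145 TPM in the cultures and 8.93 and 11.002 TPM in the embryo libraries (log2 fold change 2.97 ± 0.52, adjusted p = 0.00381), with the M5 culture highest. In the amino acid and ER stress list, of 20 tested members, 4 rose and 7 fell (median log2 fold change -0.31). The amino acid transporter Slc7a5 was at 29.2, 33.1, 32.1, 37.7 and 83.6 TPM against 182 and 198 TPM (log2 fold change -2.14 ± 0.41, adjusted p = 0.0052). The serine synthesis enzyme Psat1 was at 30.4, 25.4, 45.7, 26.2 and 19.15 TPM against 114 and 88.4 TPM (log2 fold change -1.81 ± 0.29, adjusted p = 0.00268). Sesn2, a sensor that restrains mTORC1, was higher (log2 fold change 2.85 ± 0.35, adjusted p = 0.00108), and the chaperones Hspa5 (-0.17, 95% interval -0.60 to 0.26) and Hsp90b1 (-0.11, 95% interval -0.56 to 0.34) lay within 2-fold. Of 18 ribosomal protein genes tested 5 fell, among them Rps2 (log2 fold change -1.07 ± 0.24, adjusted p = 0.0109) and Rpsa (log2 fold change -1.01 ± 0.26, adjusted p = 0.0172), and the list median was -0.56. The oxidative stress counts were 3 higher and no longer any lower without embryo library 1, 1 higher and 1 lower without embryo library 2, 4 higher and 1 lower without the RB4.6.9 culture, 7 higher and no longer any lower without the FL4 culture and 4 higher and no longer any lower without the FL10 culture. The amino acid and ER stress counts were 1 higher and 5 lower without embryo library 1, 2 higher and 5 lower without embryo library 2, 2 higher and 7 lower without the RB3.6.5 culture, 2 higher and 7 lower without the RB4.6.9 culture and 2 higher and 5 lower without the FL10 culture. The ribosomal counts were no longer any lower without embryo library 1, 8 lower without embryo library 2 and 9 lower without the RB4.6.9 culture. The calls of Rps2 and Rpsa ended without embryo library 1 (adjusted p = 0.128 and 0.179). The calls of Rps2 and Rpsa ended with the ES-derived cultures alone (adjusted p = 0.0609 and 0.0832).

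Among chemokines and cytokine receptors, of 22 tested members of 26 in the table, 7 rose and 6 fell (median log2 fold change 0.76). Ccl2, the monocyte chemoattractant, was at 1029.8, 1939, 2319, 1779 and 837 TPM in the cultures and 1.86 and 1.98 TPM in the embryo libraries (log2 fold change 9.67 ± 0.68, adjusted p = 0.000238). Its neighbour Ccl7 was at 7.66, 27.5, 18.5, 18.7 and 5.05 TPM against 0.701 and 0.558 TPM (log2 fold change 4.59 ± 0.89, adjusted p = 0.00557). Every culture exceeded both embryo libraries in both genes. In the antigen presentation and interferon list, of 32 tested members, 3 rose and 5 fell (median log2 fold change -0.31), against 22.04% and 23.4% over all genes. Bst2, tetherin, was at 561, 357, 588, 495 and 663 TPM against 142 and 152 TPM (log2 fold change 1.84 ± 0.24, adjusted p = 0.00133). The class I gene H2-T23 was at 12.54, 13.999, 13.6, 11.97 and 17.6 TPM against 26.4 and 34.1 TPM (log2 fold change -1.12 ± 0.21, adjusted p = 0.00453). In the hemogenic and stem cell list, of 18 tested members, 5 rose and 3 fell (median log2 fold change 0.27). Kit was at 133, 99.7, 179, 204 and 138 TPM against 27.1 and 47.6 TPM (log2 fold change 2.02 ± 0.32, adjusted p = 0.00252). Runx1, the factor that starts blood formation from endothelium, was at 6.01, 2.97, 10.8, 8.98 and 22.003 TPM against 0.753 and 1.51 TPM (log2 fold change 3.34 ± 0.84, adjusted p = 0.0155). The M5 culture was highest in Runx1, as in the megakaryocyte marker sum, whose part in this call was not tested. The myeloid factor Spi1 was lower at 0.185, 0.075, 0.280, 0.146 and 0.962 TPM against 11.4 and 17.5 TPM (log2 fold change -5.47 ± 0.84, adjusted p = 0.00226), beside the lower macrophage and leukocyte sums. The chemokine counts were 3 higher and 3 lower without embryo library 1 and 2 higher and 5 lower without embryo library 2. The antigen presentation counts were 1 higher and 4 lower without embryo library 2 and 3 higher and 9 lower without the M5 culture. The hemogenic counts were 3 higher and 2 lower without embryo library 1 and 3 higher and 1 lower without embryo library 2. The call of Runx1 ended without embryo library 1 (adjusted p = 0.115). The calls of Ccl7 and Runx1 ended without embryo library 2 (adjusted p = 0.0508 and 0.0728). The call of Ccl7 ended in 1 fit of all 31 libraries (adjusted p = 0.0621). For Spi1 the log2 fold change was -6.44 without the M5 culture.

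Imprinted genes, expressed from 1 parental copy, moved both ways: of 21 tested members of 22 in the table, 3 rose and 9 fell (median log2 fold change -1.23). Igf2 was at 907, 497, 638, 648 and 1283 TPM in the cultures and 2345 and 2969 TPM in the embryo libraries (log2 fold change -1.75 ± 0.34, adjusted p = 0.00536). Grb10, a brake on insulin and IGF signalling, was at 114, 119.8, 108, 120.2 and 115 TPM against 408 and 443 TPM (log2 fold change -1.89 ± 0.11, adjusted p = 0.000195), nearly equal in all 5 lines. Impact, a regulator of translation, was higher at 49.3, 71.9, 47.3, 48.1 and 29.1 TPM against 7.35 and 8.86 TPM (log2 fold change 2.60 ± 0.35, adjusted p = 0.00149). In the pregnancy-specific glycoprotein and trophoblast list, of 14 tested members of 26 in the table, 6 rose and 1 fell (median log2 fold change 2.06). Its largest rise was that of Psg22, given above. Of the 18 germline genes with a row, 4 were tested, and Piwil2 was called, at 3.06, 1.71, 3.04, 1.31 and 1.39 TPM against 0.010 and 0.103 TPM (log2 fold change 5.32 ± 0.86, adjusted p = 0.00276). The imprinted counts were 3 higher and 4 lower without embryo library 1 and 3 higher and 5 lower without embryo library 2. The trophoblast counts were 1 higher and no longer any lower without embryo library 1, 2 higher and no longer any lower without embryo library 2 and 3 higher and 1 lower without the RB4.6.9 culture. The call of Igf2 ended in 1 fit of all 31 libraries (adjusted p = 0.172). For Piwil2 the log2 fold change was 4.51 without embryo library 1. For Piwil2 the log2 fold change was 7.11 without embryo library 2.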

How the data were processed

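RNA was taken up in Trizol, cleaned on RNeasy columns and made into libraries with the TruSeq RNA kit for a HiSeq instrument, per the labels' protocols. Per the submitters' processing notes the authors used CASAVA 1.8.2, Bowtie 0.12.9, RSEM 1.2.3 and mm10; the strand setting is not given in the sources used here. The deposited expected counts (20314 genes) were rounded to whole numbers for testing, and levels are the authors' deposited TPM, renormalised in a way not described in the sources used here. The TPM header is shifted against its columns, so columns were taken by position, and each of the 31 lay closest to the count column of the same library. Cultures and embryo libraries were compared with edgeR 4.0.16 in R 4.3.3: low counts filtered, TMM scaling, quasi-likelihood test, and a test against 2-fold. Alternatives used DESeq2 1.42.0 and limma 3.58.1 (pseudocounts 1 and 0.1), other filters and other sets of libraries. The scripts were tested on simulated data. Members, lists and tests were chosen with earlier results of these data known. Genes named were the sorting markers, the 12 largest called changes each way at 20 TPM or more, up to 5 called members of a list (3 in the lesser direction) at 5 TPM or more by size of change, members within 2-fold, and defining members. Some that the rule allowed were left out after their values were seen, many of them because a call ended without 1 library. Gene positions are from GENCODE on GRCm38, and promoters from RefSeq on GRCm38.p6. A few genes are not reported here.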

Additional observations from a re-analysis of the deposited data

Results flagged for a closer look

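A value is listed here where 1 of the 5 cultures stood apart from the other 4, with a gap to the nearest culture of more than 0.71 of the whole range (Dixon's 95% critical value for 5 samples). Of 188 genes and marker sums looked at, 25 met this. Dixon's value assumes a normal spread, whereas these are plain TPM, and the genes were chosen with earlier results known. The count of 25 therefore cannot be set against a rate expected by chance.

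The M5 culture, from embryonic fibroblasts, held most of the blood-related ones. Its erythroid markers summed to 3124 TPM against 26.3 to 205 TPM in the other 4 cultures, and its megakaryocyte and platelet markers to 1685 TPM against 74.0 to 188 TPM. Its macrophage markers summed to 17.5 TPM, below the 24.9 to 26.4 TPM of the others, and its neural markers to 673 TPM, above 257 to 347 TPM. Vwf was at 58.3 TPM in M5 and at most 2.63 TPM elsewhere, and Hoxa5 at 18.2 TPM and at most 2.25 TPM. M5 also led in Angpt2 at 978 TPM, Apln at 5423 TPM, Klf6 at 307 TPM, Ptgs1 at 5.34 TPM, Slc7a5 at 83.6 TPM and Srxn1 at 145 TPM. The part of blood cells in these values was not tested.

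The RB3.6.5 culture stood above the rest in the junction genes Cldn5 at 1043 TPM and Esam at 887 TPM. It also did so in the arterial genes Gja5 at 191 TPM and Cxcr4 at 645 TPM. It was not the highest culture in the arterial gene Dll4 or the junction gene Ocln, given above. The same culture led in Thbd at 31.2 TPM, Sparc at 7394 TPM, Tm7sf2 at 83.1 TPM, Tcf7 at 5.46 TPM and Hapln1 at 2.25 TPM. RB4.6.9 stood apart in Aplnr at 149 TPM, Pgk1 at 1196 TPM and Prkcdbp at 1.05 TPM, and FL10 in Col5a2 at 1.01 TPM.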

How the results depend on the processing

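Over the 7 fits that each left out 1 library, genes higher in the cultures numbered 1570 to 3100 and genes lower 1845 to 3412. Beyond 2-fold these fits gave 238 to 846 higher and 489 to 1431 lower, and within 2-fold 3108 to 4431. Limma on log2(TPM + 1) gave 365 higher and 706 lower beyond 2-fold, and on log2(TPM + 0.1) 844 lower. With yolk sac in place of embryo endothelium the sign turned for Stab2 (-1.54), Cdh2 (1.71), Lef1 (0.65), Lmo2 (0.27), Adamts5 (-0.78), Bst2 (-0.64) and Slc7a5 (1.45), and for Acvrl1 (-1.14), Flt1 (-1.07) and Stab1 (-0.96), all log2 fold changes. In that fit the calls of 16 other named genes ended. They were Nr2f2, Hoxb5, Runx1, Tgfbr2, Ocln, Pmaip1, Col4a1, Rps2, Rpsa, Nfatc1 and Tyms, and also Tbx1, Lyve1, Fzd10, Esm1 and Mfsd2a. For Tbx1, Lyve1, Fzd10, Esm1 and Mfsd2a the adjusted p there was 0.947, 0.774, 0.384, 0.0999 and 0.0535. Cdkn1b, Epas1 and Dnajb1, which lay within 2-fold against the embryo libraries, were called lower against yolk sac endothelium (adjusted p = 0.0131, 0.00144 and 0.0158). With the FL4, FL10 and M5 cultures alone Hoxb2 turned to -6.50. The causes were not tested. No paired analysis was possible because no label ties a culture to an embryo library. With 2 embryo libraries the spread rests mainly on the cultures, and where 1 is left out the other is assumed to vary like them. Genes near 0 TPM are limited by depth: ratios with counting intervals or bounds are given where a group held at most 3 counts, and other fold changes of such genes also rest on few counts.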

Other observations

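Genes outside the lists were also among the largest rises. Kcnma1, a calcium-activated potassium channel, was at 8.11, 15.1, 36.1, 40.3 and 14.2 TPM in the cultures and 0.041 and 0 TPM in the embryo libraries. Crhbp, which binds corticotropin-releasing hormone, was at 47.5, 47.4, 29.4, 28.4 and 52.1 TPM against 0.082 and 0 TPM, and Ano3 at 13.7, 22.9, 10.8, 29.6 and 28.996 TPM against 0.010 and 0.041 TPM. The chemokine Ccl12, a neighbour of Ccl2, was at 177, 306, 144, 215 and 11.7 TPM against 0.443 and 0 TPM. Every culture exceeded both embryo libraries in these 4 genes, which the naming rule chose for the size of their change. Among the largest drops, Ctss, a lysosomal protease of macrophages and other antigen-presenting cells, was at 0, 0, 0.062, 0 and 0 TPM against 16.7 and 24.3 TPM. C1qb, a complement component that macrophages make, was at 0 TPM in each culture against 78.7 and 97.3 TPM. Neural markers, 11 in the table, summed to 311, 347, 263, 257 and 673 TPM in the cultures and 253 and 339 TPM in the embryo libraries. These sums do not speak for each member. Of the 8 tested, 5 were called lower in the cultures, against 23.4% over all genes, and 3 were not called (median log2 fold change -3.20).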
